A study of Mus musculus with 12 samples.

Results

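The subject is the set of genes whose products form the respiratory chain and the ATP synthase of mitochondria. Members were chosen by symbol, as every probe set with 1 gene symbol in the platform annotation that begins with Nduf, Uqcr, Atp5 or Cox4 to Cox8, or that is Sdha, Sdhb, Sdhc or Sdhd. This gave 179 probe sets for 90 genes, out of 45101 probe sets and 18193 named genes on the array. They comprise 36 complex I genes, 8 complex I assembly factors (the Ndufaf genes), 4 complex II genes, 8 complex III genes, 17 complex IV genes and 17 complex V genes. The classes follow the symbols, so Ndufa4, which is now known as a subunit of complex IV, stands among the complex I genes. A further 10 probe sets carry several symbols of which 1 matches, and they were not used. Cox7b is not analysed here, because no probe set carries it as a single symbol in the annotation used.

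Total RNA of mouse embryonic stem (ES) cells under neuronal differentiation was measured on 12 Affymetrix arrays, 3 in each of 4 groups: CAG150 at day 6, HM1 at day 6, CAG150 at day 4 and HM1 at day 4. HM1 is a male mouse ES line that lacks a working Hprt gene, and CAG150, by the series title, is an ES line with expanded CAG repeats. Each is 1 line, so the repeat cannot be told apart from other differences between the lines, and nothing says whether the 3 arrays of a group came from separate cultures. P-values therefore measure the spread between these samples, which may be technical. Groups follow the sample titles, because the descriptions call the HM1 day 6 samples 4-day samples and give all day 6 samples the same replicate number.

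The respiratory chain passes electrons from NADH (complex I) and succinate (complex II) through ubiquinone, complex III and cytochrome c to oxygen at complex IV. Complexes I, III and IV pump protons across the inner mitochondrial membrane, and complex V, the ATP synthase, lets them flow back to make ATP. Most subunits are encoded in the nucleus, a minority in mitochondrial DNA. ES cells are known for a high rate of glycolysis, and neurons for their dependence on oxidative phosphorylation.

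The start regions are shown here for 4 genes that the results below describe. Cox6b2 was the only member that passed the test between the lines at both days, and Cox6b1 is its broadly expressed counterpart. Atp5l was the complex V member that differed most between the days, and Ndufaf4 was an assembly factor that fell in both lines. Each sequence is a RefSeq window of 250 bases before to 50 bases after the annotated start in build GRCm38.p6, printed 5′ to 3′ on the gene's strand. Capitals mark the core of the NRF1 motif (GCATGCGC, or GCGCATGC in reverse) and the core of the ETS motif (CCGGAAG, or CTTCCGG in reverse). NRF1 and ETS family factors such as GABP are known regulators of respiratory chain genes. The Cox6b2 window is chr7:4753045-4753344 (minus strand) and holds neither core. The Cox6b1 window is chr7:30626065-30626364 (minus strand) and holds 1 ETS core. The Atp5l window is chr9:44920693-44920992 (minus strand) and holds 1 NRF1 core and 2 ETS cores. The Ndufaf4 window is chr4:24897833-24898132 (plus strand) and holds 2 NRF1 cores.
Cox6b2: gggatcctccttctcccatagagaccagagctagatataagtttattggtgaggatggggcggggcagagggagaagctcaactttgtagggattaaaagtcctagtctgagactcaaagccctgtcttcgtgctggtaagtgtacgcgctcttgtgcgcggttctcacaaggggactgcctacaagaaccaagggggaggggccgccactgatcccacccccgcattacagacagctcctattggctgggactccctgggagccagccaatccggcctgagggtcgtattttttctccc
Cox6b1: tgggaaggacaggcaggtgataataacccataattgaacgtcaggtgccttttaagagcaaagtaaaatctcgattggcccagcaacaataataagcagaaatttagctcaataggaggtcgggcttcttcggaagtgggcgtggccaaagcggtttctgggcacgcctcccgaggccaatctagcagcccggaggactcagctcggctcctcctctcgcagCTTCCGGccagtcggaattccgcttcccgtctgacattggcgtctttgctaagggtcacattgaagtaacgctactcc
Atp5l: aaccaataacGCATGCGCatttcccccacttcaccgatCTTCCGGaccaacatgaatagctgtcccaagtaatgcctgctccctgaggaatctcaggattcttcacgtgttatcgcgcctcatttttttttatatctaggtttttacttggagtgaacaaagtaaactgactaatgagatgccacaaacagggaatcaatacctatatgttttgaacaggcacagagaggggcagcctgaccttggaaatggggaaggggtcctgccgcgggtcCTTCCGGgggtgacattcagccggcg
Ndufaf4: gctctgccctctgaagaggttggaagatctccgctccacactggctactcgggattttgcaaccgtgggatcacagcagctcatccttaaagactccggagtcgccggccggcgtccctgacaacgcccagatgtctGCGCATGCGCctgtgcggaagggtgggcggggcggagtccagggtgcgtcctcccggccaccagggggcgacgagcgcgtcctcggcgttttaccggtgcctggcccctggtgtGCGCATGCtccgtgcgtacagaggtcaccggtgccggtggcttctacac

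RefSeq start windows were matched for 74 of the 90 genes, in 79 windows. The NRF1 core was present on either strand in 11 of these windows (13.9%), against 2.7% of 32851 start windows of all genes. The ETS core was present in 19 of them (24.1%), against 8.9% of all windows. The members' windows were richer in G and C, with a median of 59.0% against 52.7%, and the windows of all genes include those of non-coding genes. Besides Atp5l and Ndufaf4, the NRF1 core was in windows of Atp5g2, Atp5k, Cox6a1, Ndufa6, Ndufa8, Ndufaf5, Sdhb, Uqcr11 and Uqcrc1. The windows of Ndufa12, Ndufaf3, Ndufaf7 and Ndufc2, which like Atp5l and Ndufaf4 differed between the days in both lines, hold neither core. No start window was matched for Ndufaf6, which also differed between the days in both lines. A match describes the letters of a window and is not a site shown to be bound. Any relation of the cores to the differences below was not tested.

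Levels are the deposited intensities on a linear scale, and differences were tested on log2(intensity + 16) with limma, using the probe set with the highest mean for each gene. Of the 90 genes, 85 passed the filter on low signal (a mean over all arrays above 11.9 for the probe set) among 12280 genes tested. The other 5 were Cox4i2, Cox7b2, Cox8b, Ndufa4l2 and Ndufb4. The first 4 are paralogs of widely expressed subunits, known from restricted tissues or conditions such as lung (Cox4i2), testis (Cox7b2), heart and skeletal muscle (Cox8b) and hypoxia (Ndufa4l2), and Ndufb4 is an accessory subunit of complex I. Most members gave strong signals: 67 of 85 had a mean intensity above 1000, a level reached by 1397 of all genes tested, and their median rank was at the 94.5th percentile. The median of the gene means was 1774 for complex I, 1257 for complex II, 1719 for complex III, 2900 for complex IV and 3165 for complex V, and 325 for the assembly factors. These are probe set signals, which depend on the probes as well as on the RNA, and they set no order between genes.

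**Figure D1:**
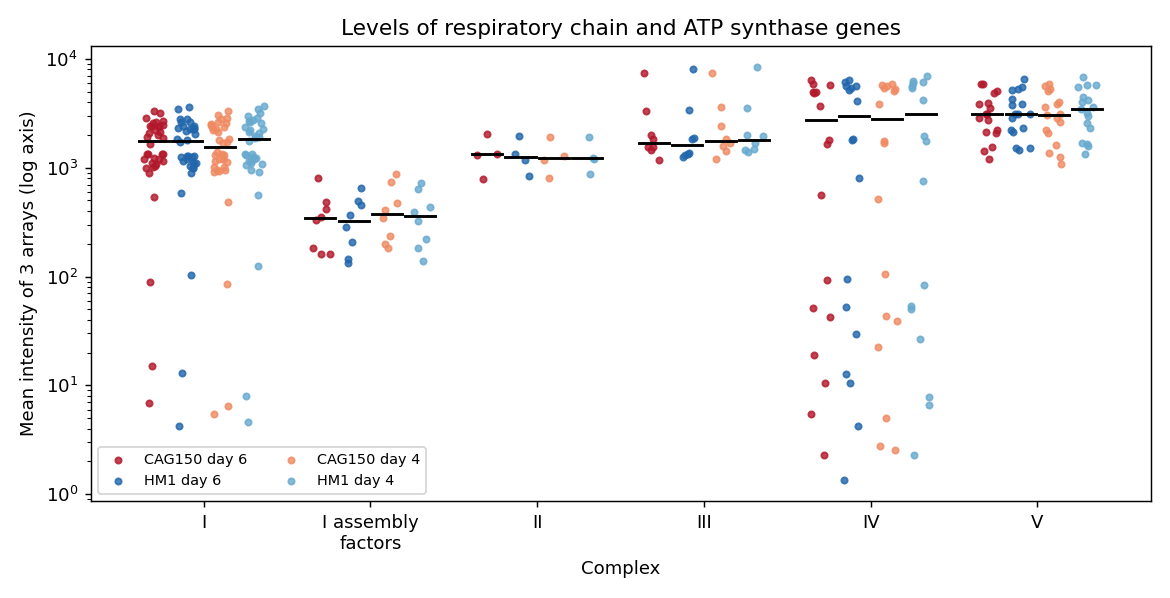
Mean intensity over the 3 arrays of a group (log axis) for each of the 90 genes, by complex, with the groups as colours and black bars at the median of the tested genes of a class. The 4 groups lie at nearly the same height within each class, and the assembly factors lie below the subunit classes.

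The module was close to level over the 4 groups. For each gene the highest of the 4 group means was divided by the lowest, and the median of this ratio was 1.17 for the 85 members, against 1.47 for all genes tested and 1.29 for the 1349 genes tested with a mean log2 signal above 10. The ratio was under 1.25 in 62 of 85 members (72.9%), against 22.8% of all genes and 41.7% of the genes with a strong signal. The subunits and the assembly factors differed in this description: 60 of 77 subunit genes and 2 of 8 assembly factors had a ratio under 1.25, with medians of 1.16 and 1.37. The share of the assembly factors, 25%, was near the 22.8% of all genes, and their signals were dimmer than those of the subunits. On the scale of the tests, log2(intensity + 16), no member reached a 2-fold difference in any of the 5 comparisons, which 1.29 to 6.57% of all genes did. The added 16 reduces the differences of dim genes: without it the ratio of group means was above 2 in 1 member, Cox6a2, at 2.57 with a mean intensity of 19.7. The median coefficient of variation within a group was 7.1% for the members. Standard errors of the line and day differences ran between 0.07 and 0.28, with a median of 0.09 on the log2 scale.

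The gene with the strongest signal in each complex passed the test in no comparison. Ndufa1, a small accessory subunit of complex I encoded on the X chromosome, had 3122, 3355 and 3418 at day 6 in CAG150 and 3437, 3508 and 3501 at day 6 in HM1. At day 4 it had 3404, 3484 and 3177 in CAG150 and 3378, 4358 and 3223 in HM1. The highest value is HM1 day 4 replicate 2, and the groups overlap except between the lines at day 6. Uqcrb, a subunit that takes part in ubiquinone binding at complex III, had 7319, 7722 and 7081 at day 6 in CAG150 and 7840, 8290 and 8100 at day 6 in HM1. At day 4 it had 6909, 7694 and 7537 in CAG150 and 8337, 9180 and 7954 in HM1. The CAG150 arrays lay below the HM1 arrays on both days, with differences of -0.13 (adjusted p = 0.30) and -0.20 (adjusted p = 0.13) that did not pass. Atp5g3, which encodes the proton-carrying c subunit of the ATP synthase, had means of 5884 ± 424 at day 6 in CAG150, 6499 ± 65.8 at day 6 in HM1, 5928 ± 338 at day 4 in CAG150 and 6833 ± 530 at day 4 in HM1 (SD, n = 3 each). Sdhb, the iron-sulfur subunit of complex II, averaged 2051 ± 87.6, 1943 ± 142, 1896 ± 35.7 and 1923 ± 173 in the same order of groups, and Cox7a2, a complex IV subunit, averaged 5803 ± 211, 6169 ± 214, 5854 ± 287 and 6915 ± 627.

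Where a subunit has isoforms, the one used in most tissues gave the strong signal. Cox6a1 averaged 6398 ± 566 at day 6 in CAG150, 6452 ± 85.3 at day 6 in HM1, 5433 ± 350 at day 4 in CAG150 and 6282 ± 686 at day 4 in HM1 (SD, n = 3 each), and by this brightest probe set passed in no comparison. The 2 probe sets of Cox6a1 differed by 0.23 and 0.38 on the log2 scale between the days in CAG150, and the dimmer 1 was called there. Cox6a2, the heart and muscle counterpart of Cox6a1, lay between 4.95 and 40.7 on all arrays. Cox4i1 lay between 4858 and 6503, and its counterpart Cox4i2 between 2.44 and 20.8. Ndufa4 lay between 2743 and 3897, and Ndufa4l2 between 2.54 and 21.1. Probe sets of different genes differ in their probes, so these are the signals on these arrays and not a ratio of the isoforms.

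Between the lines at day 6, 2 members were higher and 1 was lower in CAG150 (limma, adjusted p under 0.05), against 21.4% called among all genes, 10.1% higher and 11.2% lower. The 2 higher ones were Ndufb7, an accessory subunit of the membrane arm of complex I, and Uqcrq, a small subunit of complex III. The lower one was Cox6b2. The complex I gene Ndufs4 was not called by its brightest probe set, but 1 of its 4 probe sets was. The 4 differed by 0.01 to 0.39 on the log2 scale. The median difference of the 85 members was -0.02 on the log2 scale, and was 0.04 after quantile normalization and -0.07 with each array centred on its median. The 95% intervals lay within 0.5 on the log2 scale (1.41-fold) for 79 of the 85 members, and 9 (10.6%) had an unadjusted p under 0.05, where 33.9% of all genes did. The 3 CAG150 arrays and the 3 HM1 arrays did not overlap in 33 members, where 38.6% of all genes did not.

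**Figure D2:**
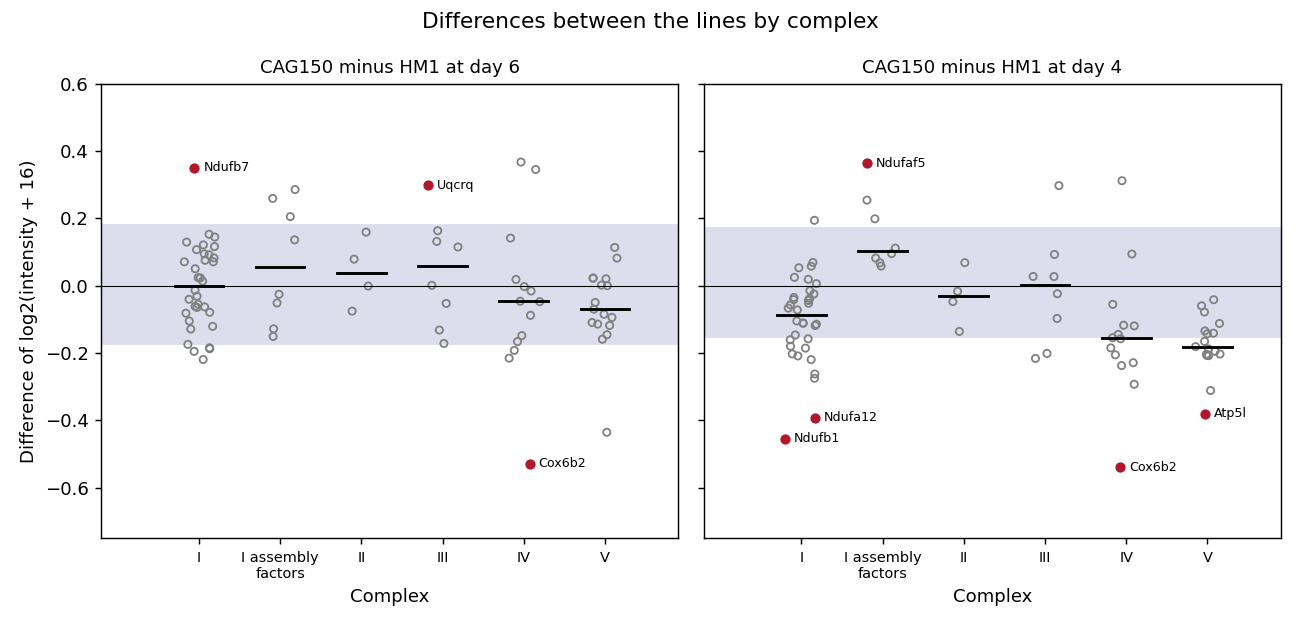
Difference of log2(intensity + 16) between CAG150 and HM1 at day 6 (left) and day 4 (right) for each tested gene by complex; red points passed adjusted p under 0.05, black bars are class medians and the shaded band holds the middle 50% of all genes tested. Cox6b2 is the lowest point in both panels, at -0.53 and -0.54, and all complex V points of the right panel lie below 0.

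Cox6b2 encodes the testis isoform of a subunit of complex IV that faces the intermembrane space. Its intensities at day 6 were 529.9, 567.0 and 573.3 in CAG150, against 732.9, 802.5 and 901.3 in HM1. At day 4 they were 508.7, 562.4 and 482.5 in CAG150, against 773.8, 824.4 and 682.6 in HM1. All 6 CAG150 arrays lay below all 6 HM1 arrays, with no overlap on either day. The difference was -0.53 (SE 0.10, adjusted p = 0.0028) at day 6, a 1.44-fold lower level in CAG150, and -0.54 (adjusted p = 0.0036) at day 4, a 1.45-fold lower level. The gene has 1 probe set, and both calls held in every alternative that was run. Between the days it differed by 0.10 in CAG150 and 0.09 in HM1, with adjusted p of 0.44 and 0.51.

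Cox6b1, the isoform used in most tissues, had 4637, 5219 and 4785 at day 6 in CAG150, against 5575, 5677 and 5730 in HM1. At day 4 it had 4973, 5575 and 4716 in CAG150, against 5593, 6550 and 4924 in HM1. Its groups did not overlap at day 6 and overlapped at day 4. The differences, -0.22 (adjusted p = 0.18) at day 6 and -0.15 (adjusted p = 0.37) at day 4, did not pass the test. Cox8c, the testis isoform of subunit 8, averaged 51 ± 15.3 at day 6 in CAG150 and 53 ± 4.47 in HM1, and 44 ± 5.89 at day 4 in CAG150 and 54 ± 7.32 in HM1 (SD, n = 3 each).

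Ndufb7 had 2606, 2588 and 2595 at day 6 in CAG150, against 2024, 2178 and 1906 in HM1, and the groups did not overlap. At day 4 it had 2105, 2348 and 2304 in CAG150, against 1954, 2510 and 2230 in HM1, where CAG150 fell inside the range of HM1. The day 6 difference was 0.35 (SE 0.10, adjusted p = 0.023), a 1.28-fold higher level, and both of its probe sets were called there. The call was lost with the arrays centred on their medians (adjusted p = 0.091) and without any 1 of 5 of the 6 day 6 arrays, all but HM1 replicate 2 (adjusted p 0.053 to 0.085).

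Uqcrq had 1516, 1513 and 1640 at day 6 in CAG150, against 1175, 1308 and 1304 in HM1, with no overlap. The difference was 0.30 (SE 0.09, adjusted p = 0.027), a 1.23-fold higher level. The call was lost without CAG150 day 6 replicate 1 or 3 or HM1 day 6 replicate 1 (adjusted p 0.05 to 0.10), with arrays centred on their medians (0.24, adjusted p = 0.14) and with the mean of the gene's probe sets (0.14, adjusted p = 0.41). At day 4 its difference of 0.09 did not pass (adjusted p = 0.51).

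Ndufb7 and Uqcrq lie on chromosomes 8 and 11, where genes in general were higher in CAG150: the median over the 1678 genes tested on these 2 chromosomes was 0.23 at day 6 and 0.18 at day 4. The 8 tested members on them are Cox4i1, Ndufa13 and Ndufb7 on chromosome 8 and Atp5g1, Atp5h, Ndufaf8, Uqcr10 and Uqcrq on chromosome 11. At day 6 all 8 were higher in CAG150, by 0.08 to 0.35 with a median of 0.14, and 2 of them passed the test. Of the 1678 genes, 1340 were above 0 and 37.7% were called at day 6, so 2 of 8 (25%) is no higher a share. The other 77 members had a median of -0.05, with 30 above 0 and 1 called. At day 4 the 8 genes had a median of 0.04 with 5 above 0, and the other 77 a median of -0.12 with 17 above 0. The part of the chromosome-wide difference in these values was not tested.

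**Figure D3:**
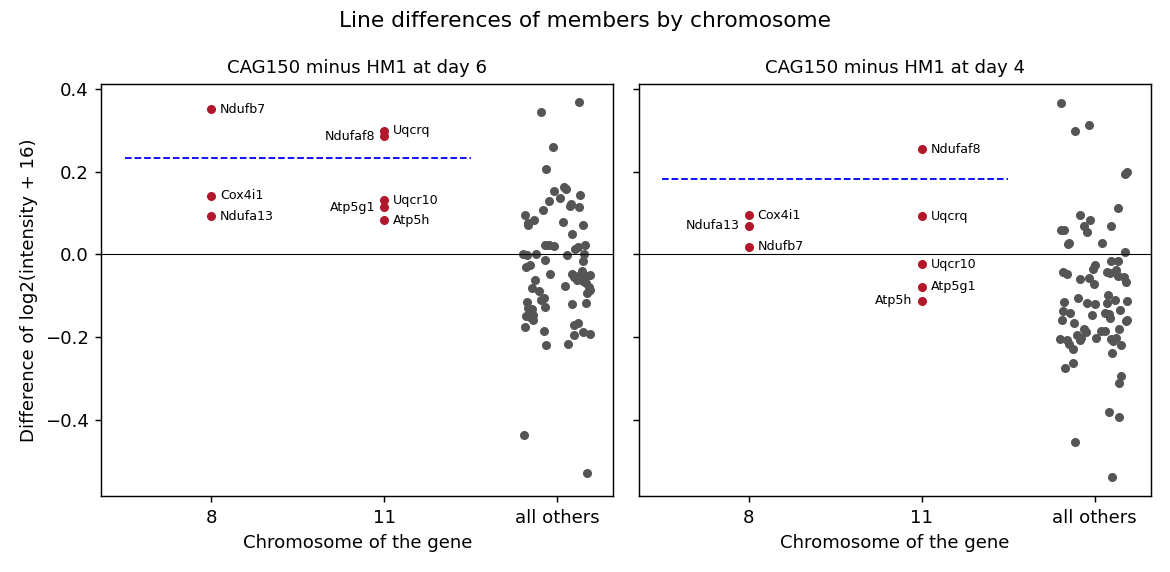
Differences of log2(intensity + 16) between CAG150 and HM1 for members on chromosome 8, on chromosome 11 and on all others, at day 6 (left) and day 4 (right); each point is a gene, and the dashed line is the median of all 1678 genes tested on chromosomes 8 and 11. At day 6 the 8 labelled members lie above 0, with Ndufb7 at 0.35.

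Between the lines at day 4, 1 member was higher in CAG150 and 4 were lower, against 15.8% called among all genes, 7.87% higher and 7.92% lower. The higher one was the assembly factor Ndufaf5. The lower ones were Cox6b2, Atp5l and the complex I genes Ndufa12 and Ndufb1. The number called fell to 2 without CAG150 day 4 replicate 1, CAG150 day 4 replicate 3 or HM1 day 4 replicate 2, and to 3 without HM1 day 4 replicate 1 or 3. The 95% interval lay within 0.5 on the log2 scale for 72 of the 85 members, and 17 (20%) had an unadjusted p under 0.05, where 29.8% of all genes did. The groups did not overlap in 21 members, against 34.4% of all genes.

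Below this threshold, most subunits lay slightly lower in CAG150 at day 4. The difference was negative in 63 of 77 subunit genes, with a median of -0.12, against a median of 0.01 for all genes tested and -0.07 for genes tested with a mean log2 signal above 10. Complex V had 17 of 17 negative with a median of -0.18, and 1 of them passed the test. Complex IV had 12 of 14 negative (median -0.16), complex I 27 of 34 (median -0.09) and complex III 4 of 8 (median 0.00). The 8 assembly factors went the other way, with 8 of 8 positive and a median of 0.10.

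These small shifts moved with the scaling and with 1 array. After quantile normalization 51 of 77 subunits were negative with a median of -0.04, and complex V had 14 of 17 with a median of -0.09. With the arrays centred on their medians it was 70 of 77 and -0.18 for the subunits, and -0.24 for complex V. HM1 day 4 replicate 2 had a summed member intensity of 217378, against 176574 to 192818 on the other 11 arrays. Without it 49 of 77 subunits were negative with a median of -0.06, and complex V had 16 of 17 with a median of -0.10. The part of that array's make-up in the shift was not tested.

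Atp5l encodes subunit g of the membrane part of the ATP synthase, which takes part in pairing the enzyme into dimers. Its intensities were 2176, 2079 and 2195 at day 6 in CAG150 and 1990, 2192 and 2172 at day 6 in HM1. At day 4 they were 1128, 1328 and 1336 in CAG150 and 1460, 1809 and 1685 in HM1. The lines overlapped at day 6, and at day 4 all CAG150 arrays lay below all HM1 arrays. At day 4 the difference was -0.38 (SE 0.10, adjusted p = 0.021), a 1.30-fold lower level in CAG150. That call was lost without CAG150 day 4 replicate 1, HM1 day 4 replicate 2 or HM1 day 4 replicate 3 (adjusted p = 0.086, 0.079 and 0.062). At day 6 the difference was 0.02 (adjusted p = 0.90).

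Ndufa12, an accessory subunit of complex I related in sequence to the assembly factor Ndufaf2, showed a like pattern. It had 1888, 1896 and 1973 at day 6 in CAG150 and 2167, 2164 and 2215 at day 6 in HM1. At day 4 it had 1318, 1475 and 1229 in CAG150 and 1649, 2136 and 1545 in HM1. HM1 day 4 replicate 2 stands apart from its group, and the lines did not overlap on either day. The day 4 difference was -0.39 (SE 0.11, adjusted p = 0.034). It was lost without HM1 day 4 replicate 2 (-0.25, adjusted p = 0.11) and without CAG150 day 4 replicate 1 or 3 (adjusted p = 0.087 and 0.12). With the mean of the gene's probe sets it was -0.18 (adjusted p = 0.16). The day 6 difference was -0.18 (adjusted p = 0.28).

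Ndufb1, a small accessory subunit of the membrane arm, had a dim probe set, with 69.2, 94.5 and 94.4 at day 4 in CAG150, against 146.4, 118.6 and 106.1 in HM1. The groups did not overlap. Its difference of -0.45 (SE 0.14, adjusted p = 0.042) lost its call in 8 of the 12 fits without 1 array, with adjusted p of 0.05 to 0.16, and with the replicate number as a block (adjusted p = 0.06). Ndufaf5, which hydroxylates an arginine of a complex I subunit during assembly, had 163.0, 181.4 and 203.9 at day 4 in CAG150, against 133.2, 154.6 and 126.9 in HM1. The groups did not overlap, and the difference was 0.36 (SE 0.10, adjusted p = 0.023), a 1.29-fold higher level. That call was lost with either scaling alternative (adjusted p = 0.059 and 0.10) and without CAG150 day 4 replicate 2 or 3 or HM1 day 4 replicate 1 or 3 (adjusted p 0.061 to 0.088). At day 6 Ndufaf5 differed by 0.26 (adjusted p = 0.077).

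In CAG150, between day 6 and day 4, 7 members were higher at day 6 and 4 were lower, against 44.4% called among all genes, 22.5% higher and 21.9% lower. In HM1, 3 were higher and 7 were lower, against 38.9% of all genes, 20.4% higher and 18.5% lower. Of these calls 7 were shared by both lines in the same direction. They are 63.6% of the 11 in CAG150 and 70.0% of the 10 in HM1. The 2 comparisons share no array, but they use the same estimate of the spread. The matching share over all genes was not computed, so this overlap cannot be called high or low. The shared ones were Atp5l, Ndufa12 and Ndufaf3, which were higher at day 6, and Ndufc2, Ndufaf4, Ndufaf6 and Ndufaf7, which were lower. Of the 8 assembly factors, 4 were called in each line (50%), a share near the 44.4% of all genes in CAG150 and 38.9% in HM1.

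**Figure D4:**
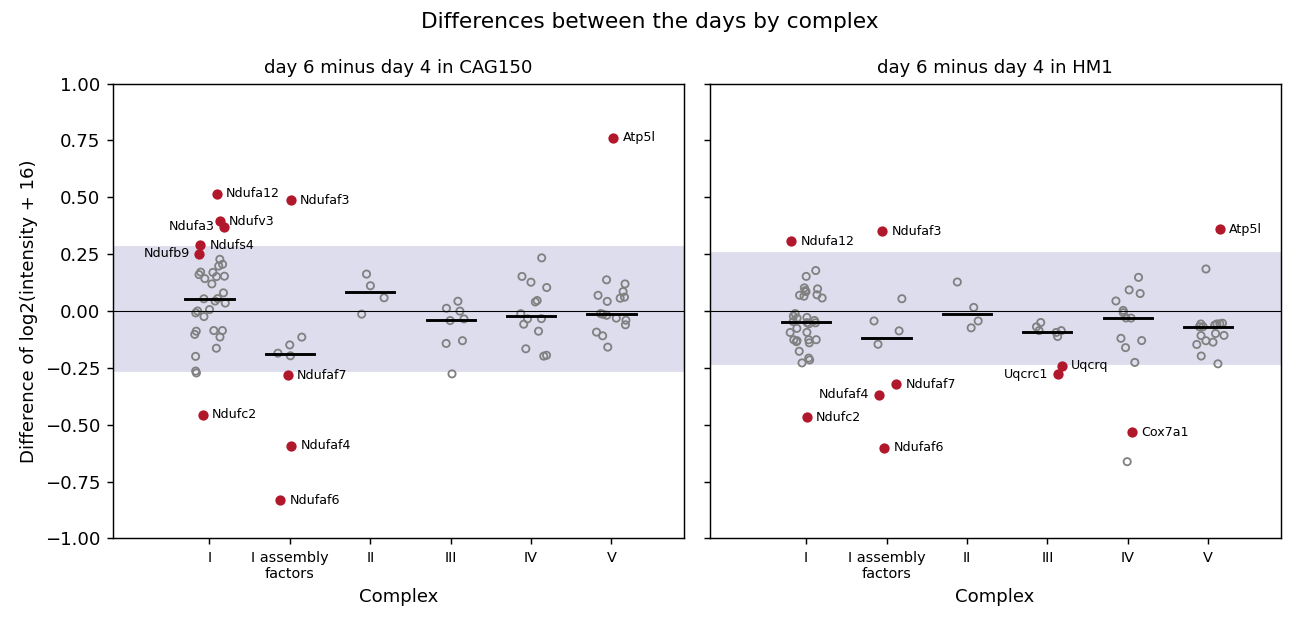
Difference of log2(intensity + 16) between day 6 and day 4 in CAG150 (left) and HM1 (right) for each tested gene by complex; red points passed adjusted p under 0.05, black bars are class medians and the shaded band holds the middle 50% of all genes tested. Atp5l is the highest point in both panels, at 0.76 and 0.36, and Ndufaf6 is the lowest called point in both, at -0.83 and -0.60.

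The median difference of the 85 members was 0.00 in CAG150 and -0.07 in HM1, against 0.00 in both lines for all genes tested and -0.11 in both lines for genes with a mean log2 signal above 10. It was 0.08 and 0.02 after quantile normalization and -0.10 and -0.17 with the arrays centred on their medians, so its sign depends on the scaling. The assembly factors had medians of -0.19 in CAG150 and -0.12 in HM1, and stayed below 0 under both scalings, at -0.21 and -0.14 after quantile normalization and -0.29 and -0.22 after centring. The 95% intervals lay within 0.5 on the log2 scale for 73 of 85 members in each line. At an unadjusted p under 0.05 there were 16 members in CAG150 (18.8%, against 51.8% of all genes) and 14 in HM1 (16.5%, against 47.3%). The days did not overlap in 35 members in CAG150 and 20 in HM1, where 55% and 49.1% of all genes did not.

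Among the assembly factors, Ndufaf3 and Ndufaf4 work as a pair in building the arm of complex I that binds ubiquinone. They moved in opposite directions. Ndufaf4 fell to 510.9, 458.4 and 479.7 at day 6 in CAG150, against 731.0, 737.0 and 738.5 at day 4. In HM1 it had 533.6, 487.0 and 456.5 at day 6, against 608.4, 675.3 and 634.5 at day 4. The days did not overlap in either line, and the differences were -0.59 (SE 0.08, adjusted p = 9.7e-05), or 1.51-fold, in CAG150 and -0.37 (adjusted p = 0.0039), or 1.29-fold, in HM1. Ndufaf3 had 333.9, 330.1 and 335.5 at day 6 in CAG150, against 203.6, 249.4 and 248.5 at day 4. In HM1 it had 277.8, 289.3 and 293.6 at day 6, against 219.9, 204.2 and 241.4 at day 4. Every day 6 array lay above every day 4 array in both lines. It rose 1.40-fold in CAG150 (0.49, adjusted p = 0.00094) and 1.28-fold in HM1 (0.35, adjusted p = 0.0096), and the HM1 call was lost with arrays centred on their medians (adjusted p = 0.088).

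Ndufaf6, a factor needed early in complex I assembly, had the largest called day difference of the members in each line. It had 176.3, 196.6 and 181.3 at day 6 in CAG150, against 286.7, 347.3 and 398.7 at day 4. In HM1 it had 173.9, 225.4 and 224.6 at day 6, against 341.7, 324.4 and 299.8 at day 4. The days were apart in both lines, and the differences were -0.83 (SE 0.13, adjusted p = 0.00017), or 1.78-fold, and -0.60 (adjusted p = 0.0023), or 1.52-fold. Ndufaf7, which methylates a complex I subunit, differed less, by -0.28 in CAG150 (adjusted p = 0.030) and -0.32 in HM1 (adjusted p = 0.018). Each of its calls was lost without any 1 of 4 arrays (CAG150 day 4 replicates 1, 2 and 3 and day 6 replicate 2, adjusted p 0.053 to 0.12, for CAG150; HM1 day 4 replicates 1 and 3 and day 6 replicates 1 and 3, adjusted p 0.054 to 0.064, for HM1). Ndufaf1, Ndufaf2, Ndufaf5 and Ndufaf8 passed in neither line, with differences between -0.20 and 0.05.

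**Figure D5:**
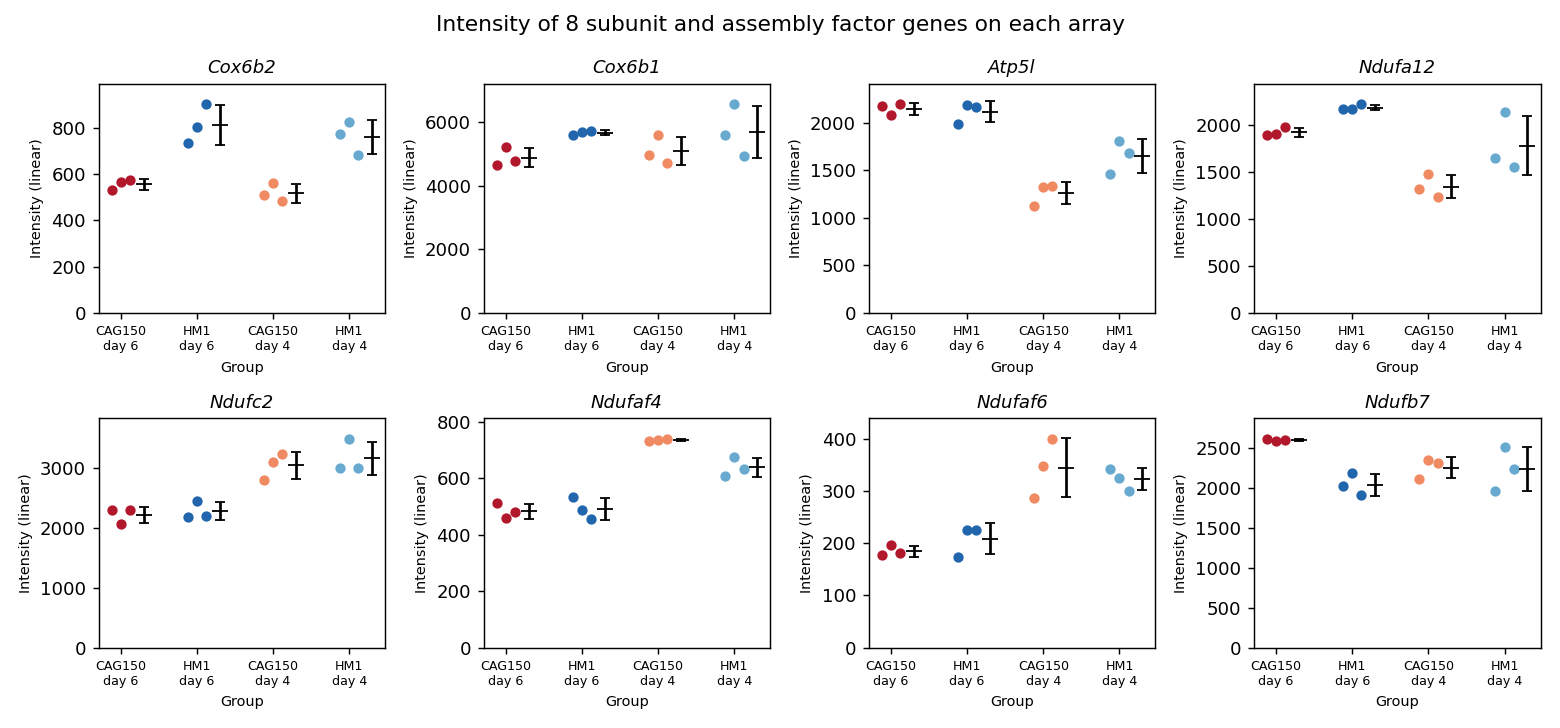
Intensity (linear axis starting at 0) of 8 genes on each of the 12 arrays; coloured points are arrays and the black mark is the group mean ± SD (n = 3). Cox6b2 separates the lines on both days. Within each line, Atp5l, Ndufa12, Ndufc2, Ndufaf4 and Ndufaf6 separate the days, and Ndufa12 also separates the lines on both days.

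Ndufc2, an accessory subunit of the membrane arm, fell at day 6 in both lines. It had 2284, 2058 and 2285 at day 6 in CAG150, against 2789, 3094 and 3233 at day 4. In HM1 it had 2178, 2444 and 2196 at day 6, against 2986, 3472 and 3000 at day 4. No day 6 array reached the day 4 range in either line. The differences were -0.46 (SE 0.10, adjusted p = 0.0018), or 1.37-fold, in CAG150 and -0.47 (adjusted p = 0.002), or 1.38-fold, in HM1, and all 3 of its probe sets were called in both lines.

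Atp5l was the only subunit of complex V called between the days, and its values are those given above. It rose 1.70-fold in CAG150 (0.76, adjusted p = 5.3e-05) and 1.28-fold in HM1 (0.36, adjusted p = 0.012), with the days apart in both lines. The HM1 call was lost without HM1 day 4 replicate 1 (0.28, adjusted p = 0.053) and with arrays centred on their medians (adjusted p = 0.11). Ndufa12 rose by 0.52 (1.43-fold, adjusted p = 0.0026) in CAG150 and by 0.31 (adjusted p = 0.047) in HM1. The HM1 call was lost without any 1 of 9 arrays (adjusted p 0.058 to 0.18), with the lowest difference, 0.22, without HM1 day 4 replicate 3, and with arrays centred on their medians (0.20, adjusted p = 0.22). Of its 4 probe sets 2 were called in CAG150 and 1 in HM1.

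The other subunits called in CAG150 were all higher at day 6 and all belong to complex I. Ndufv3, an accessory subunit of the NADH-binding arm, had 1342, 1304 and 1336 at day 6 in CAG150, against 967.7, 1005 and 1047 at day 4, with no overlap. It rose 1.31-fold (0.39, SE 0.08, adjusted p = 0.0011), and in HM1 its difference was 0.18 (adjusted p = 0.084). Ndufa3 rose by 0.37 (adjusted p = 0.011), Ndufs4 by 0.29 (adjusted p = 0.024) and Ndufb9 by 0.25 (adjusted p = 0.036), and in HM1 these 3 differed by 0.10, 0.09 and 0.09 with adjusted p of 0.48 to 0.49. Ndufs4 is a late-joining subunit whose loss in mice gives a Leigh-like brain disease. The Ndufs4 call was lost without CAG150 day 4 replicate 1 or 3 or CAG150 day 6 replicate 1 (adjusted p 0.055 to 0.10) and with arrays centred on their medians (0.19, adjusted p = 0.20). Its 4 probe sets differed by 0.01 to 0.69 in CAG150, and in HM1 they disagreed in sign, from -0.29 to 0.41 with 1 called. The Ndufb9 call was lost without CAG150 day 4 replicate 1 or 2 or CAG150 day 6 replicate 2 or 3 (adjusted p 0.065 to 0.12), with arrays centred on their medians (0.15, adjusted p = 0.28) and with the mean of its probe sets (0.14, adjusted p = 0.19). The Ndufa3 call was lost with arrays centred on their medians (adjusted p = 0.083).

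In HM1 the other calls were in complexes III and IV. Uqcrc1, a core protein of complex III, had 1414, 1321 and 1387 at day 6, against 1696, 1656 and 1657 at day 4. The days did not overlap, and the difference was -0.28 (SE 0.07, adjusted p = 0.0088), or 1.21-fold. In CAG150 it was -0.14 (adjusted p = 0.13). Uqcrq differed by -0.24 (adjusted p = 0.043), a call lost in 9 of the 12 fits without 1 array (adjusted p 0.051 to 0.15), after quantile normalization (-0.18, adjusted p = 0.089) and with the mean of its probe sets (-0.13, adjusted p = 0.42). Complex III genes lay lower at day 6 in HM1 in 8 of 8 cases (median -0.09), and in 6 of 8 after quantile normalization. Genes tested with a mean log2 signal above 10 had a median of -0.11 in HM1, with 910 of 1349 below 0, so the complex III median was no lower. The probe sets of Uqcr10, a small subunit of complex III, disagreed: the brightest was called in neither line, and a dimmer one differed by -0.46 in CAG150 and -0.34 in HM1 and was called in both.

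Cox7a1, the heart and skeletal muscle isoform of a complex IV subunit, was dim, with 24.2, 34.7 and 30.4 at day 6 in HM1, against 53.4, 48.5 and 47.9 at day 4. The days did not overlap, and it differed by -0.53 (SE 0.16, adjusted p = 0.021). That call was lost without HM1 day 4 replicate 1 or HM1 day 6 replicate 1 (adjusted p = 0.063 and 0.086). Its counterpart Cox7a2, the isoform of most tissues, differed by -0.16 in HM1 (adjusted p = 0.16). The widely expressed Cox4i1, with a role in regulating complex IV, differed by -0.01 in HM1 and 0.04 in CAG150 (adjusted p = 0.96 and 0.76).

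Of the 4 complex II genes none was called in any of the 5 comparisons (limma, adjusted p under 0.05), and none had an unadjusted p under 0.05. Sdha, its flavoprotein subunit, averaged 1309 ± 62.3 at day 6 in CAG150, 1170 ± 23.9 at day 6 in HM1, 1167 ± 28.4 at day 4 in CAG150 and 1207 ± 62.8 at day 4 in HM1 (SD, n = 3 each). Its line difference at day 6 was 0.16 (adjusted p = 0.16), and its day difference in CAG150 was 0.16 (adjusted p = 0.10). The catalytic subunits of the ATP synthase, Atp5a1 and Atp5b, differed by at most 0.16 in size in the 4 line and day comparisons and passed in none. Atp5md, a small subunit, had 1 array that stood apart, with 1858 in CAG150 day 6 replicate 1 and 949.2 and 797.6 on the other 2 arrays of that group.

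Whether the day difference depended on the line was tested as the interaction. No member passed (limma, 0 of 85, against 3.61% of all genes), and 4 had an unadjusted p under 0.05, where all genes had 2021 of 12280. These were Atp5l (0.40, adjusted p = 0.16), Cox7a1 (0.66, adjusted p = 0.16), Ndufb7 (0.33, adjusted p = 0.25) and Ndufb2 (0.34, adjusted p = 0.28). The members' median was 0.08, with 64 of 85 positive, and it was 0.02 without HM1 day 4 replicate 2. The interval lay within 0.5 on the log2 scale for 65 of the 85.

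Other mitochondrial genes were counted beside the module. For reference, 44.4% of all genes were called between the days in CAG150 (22.5% higher, 21.9% lower) and 38.9% in HM1 (20.4% higher, 18.5% lower). Of 36 assembly factors with other symbols, 4 were higher and 13 lower at day 6 in CAG150 (47.2% called), and 4 higher and 8 lower in HM1 (33.3% called). The totals called were near those of all genes, but more were lower than higher in both lines. The difference was below 0 in 24 of the 36 in CAG150 and 23 in HM1. Nubpl, which delivers iron-sulfur clusters to complex I, had 279.0, 211.3 and 245.1 at day 6 in CAG150, against 489.7, 582.3 and 657.7 at day 4. Cox20, a chaperone of complex IV subunit 2, had 576.4, 608.2 and 682.0 at day 6 in CAG150, against 336.4, 290.4 and 255.9 at day 4. Both had days that did not overlap, and they fell by 1.18 and rose by 1.05 on the log2 scale. In HM1 both passed the test in the same direction, and Cox20 rose by 0.73 there.

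The list of 76 genes of the mitochondrial ribosome, which translates the subunits encoded in mitochondrial DNA, had 2 higher and 29 lower at day 6 in CAG150 and again 2 higher and 29 lower in HM1. The total called, 40.8% in each line, was near that of all genes, but the calls were mostly lower. Among all genes, 22.5% were higher and 21.9% lower in CAG150, and 20.4% higher and 18.5% lower in HM1. The difference was below 0 in 62 of the 76 in CAG150 and 64 in HM1, against 6135 and 6211 of the 12280 genes tested. The medians of the list were -0.19 and -0.21. Of 25 regulators of mitochondrial biogenesis, 1 was higher and 12 lower in CAG150 and 1 higher and 8 lower in HM1 (52% and 36% called), with medians of -0.26 and -0.17. Pprc1, a coactivator of NRF1, had 245.4, 282.5 and 269.1 at day 6 in CAG150, against 619.2, 669.4 and 621.4 at day 4, and fell by 1.21 there. Among 22 genes of the citrate cycle and pyruvate dehydrogenase, none was higher and 5 were lower in CAG150, and 2 were higher and 7 lower in HM1 (22.7% and 40.9% called). Beside these, 18 genes of cytochrome c and quinone metabolism had 5 higher and 4 lower in CAG150 and 2 higher and 3 lower in HM1 (50% and 27.8% called). The 14 carriers and pores had 3 higher and 2 lower in CAG150 and 2 higher and 3 lower in HM1 (35.7% called in each). The 21 genes of quality control and dynamics had 4 higher and 6 lower in each line (47.6% called).

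Glycolysis genes had medians farther from 0 than any class of the module. Of 16, 10 were lower and 2 higher at day 6 in CAG150 (median -0.48), and 12 lower and 1 higher in HM1 (median -0.83), which is 75% and 81.2% called, against 44.4% and 38.9% of all genes. Between the lines, 7 were lower and 1 higher in CAG150 at day 6 (median -0.27), and 11 lower and none higher at day 4 (median -0.50), which is 50% and 68.8% called, against 21.4% and 15.8% of all genes. Ldha, the main lactate dehydrogenase subunit of glycolytic cells, had 2934, 3412 and 3957 at day 4 in CAG150, against 6432, 7541 and 5789 in HM1, with no overlap and a difference of -0.94. In each of the other 7 mitochondrial lists, at most 5 genes at day 4 and 8 at day 6 were called between the lines, or at most 14.3% and 21.4% of a list.

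The signals of cell type markers differed between the groups that these comparisons set against each other. The summed intensity of 14 markers of postmitotic neurons was 22433 to 23634 at day 6 in CAG150, 15671 to 17723 at day 6 in HM1, 3672 to 4154 at day 4 in CAG150 and 4706 to 4869 at day 4 in HM1, with 14 of 14 above the filter. At day 6 14 of the 14 were higher in CAG150 than in HM1 and 12 passed the test. At day 4 the sum and most of its genes went opposite ways: 11 of 14 differences were positive (median 0.23), with 6 called higher and 2 lower in CAG150, while Stmn2, a growth-associated neuronal protein, had 608.8, 662.9 and 549.2 in CAG150, against 2081, 2220 and 2023 in HM1. The sum of 8 neural progenitor markers was 21490 to 22727, 20324 to 22166, 10994 to 11316 and 8880 to 10717 in the same groups. Between the lines, 4 of these 8 genes were higher and 4 lower in CAG150 on each day, with medians of 0.09 at day 6 and 0.05 at day 4. The sum of 8 fibroblast and smooth muscle markers was 297.1 to 328.4 at day 6 in CAG150, against 4816 to 5764 in HM1, and 499.4 to 569.6 at day 4 in CAG150, against 3276 to 3776 in HM1. The sum of 8 pluripotent cell markers was 924.4 to 1001 at day 6 in CAG150, against 2214 to 2519 in HM1, and 517.7 to 546.8 at day 4 in CAG150, against 1523 to 1700 in HM1. The sum of 9 endoderm markers, 5 of them above the filter, was 813.9 to 930.3 at day 6 in CAG150, against 2031 to 2309 in HM1, and 517.4 to 564.6 at day 4 in CAG150, against 1409 to 1587 in HM1. The sum of 7 striated muscle markers, 4 of them above the filter, was 51.3 to 97.7 at day 6 in CAG150, against 366.6 to 392.2 in HM1, and 98.9 to 126.7 at day 4 in CAG150, against 219.6 to 240.6 in HM1. In these bulk samples fewer cells of a type and less RNA per cell cannot be told apart, and the part of cell make-up in the results was not tested.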

How the data were processed

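The authors deposited 1 intensity per probe set and array on a linear scale, with a mean over each array, leaving out 2% at either end, of 150. This scaling was read from the values, since the software and settings are not given in the sources used here. Of 45101 probe sets, 64 are controls and were left out. Symbols come from the platform annotation given with the table, and chromosomes and start windows from RefSeq tables of GRCm38.p6, matched by Entrez identifier and by symbol.

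Values were analysed as log2(intensity + 16). The brightest probe set stood for a gene, and genes above the 40th percentile (log2 4.80) were tested, 12280 in all. A 4-group linear model over the 12 arrays was fitted with limma 3.58.1 in R 4.3.3 (8 residual and 4.46 prior degrees of freedom). Each comparison's p-values were adjusted over the 12280 genes (Benjamini-Hochberg), with 0.05 as the threshold. Arrays of a group correlated at 0.985 to 0.991, and the number of arrays limits the precision. Statistics are given for called members whose groups do not overlap (up to 6 in each direction), the brightest of each complex, isoform pairs and members whose probe sets disagree, and for up to 3 called genes of each other list. The members, lists and tests were chosen with earlier results of these data known. The fit was tested on simulated data. Alternatives covered normalization, pseudocount, filter, probe set choice, variance trend, replicate block and each array left out. Raw array files were not used here.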

Additional observations from a re-analysis of the deposited data

Results flagged for a closer look

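In the mitochondrial and glycolysis lists beside the module, 4 genes had a day difference that differed between CAG150 and HM1 by the interaction test. They were 3 of 16 glycolysis genes and 1 of 25 regulators of mitochondrial biogenesis. None was called in the other mitochondrial lists, such as 76 genes of the mitochondrial ribosome, and 3.61% of all genes were called. Ldhb, a lactate dehydrogenase subunit, had 739.8, 658.5 and 734.4 at day 6 in CAG150, against 313.7, 370.3 and 280.1 at day 4. In HM1 it had 672.4, 760.2 and 717.9 at day 6, against 489.4, 609.8 and 473.9 at day 4, and the interaction was 0.67 (limma, adjusted p = 0.048). The glucose transporters Slc2a1 and Slc2a3 were lower at day 6 in both lines, with interactions of -0.66 (adjusted p = 0.006) and -0.75 (adjusted p = 0.028). Slc2a1 averaged 2158 ± 52.2 at day 6 and 6017 ± 251 at day 4 in CAG150, and 3336 ± 84.2 at day 6 and 5860 ± 421 at day 4 in HM1. Slc2a3 averaged 797.7 ± 47.8 at day 6 and 3987 ± 590 at day 4 in CAG150, and 2220 ± 93.9 at day 6 and 6527 ± 748 at day 4 in HM1 (SD, n = 3 each). Top1mt, the mitochondrial DNA topoisomerase, had an interaction of -0.64 (adjusted p = 0.018). It averaged 114.3 ± 14.4 at day 6 and 160.7 ± 10.7 at day 4 in CAG150, and 148.3 ± 7.91 at day 6 and 127.2 ± 4.51 at day 4 in HM1.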

How the results depend on the processing

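Of 29 called differences of members, 13 kept their call in every alternative run: Cox6b2 on both days, Ndufaf4, Ndufaf6 and Ndufc2 in both lines, Atp5l, Ndufa12, Ndufaf3 and Ndufv3 in CAG150 and Uqcrc1 in HM1. Over all alternatives, 568 of 663 values kept direction and call, 95 lost the call and 0 changed direction. With no filter, and with all probe sets tested, the calls of Ndufa12 (lines at day 4, days in HM1), Ndufb1, Uqcrq, and Ndufb9 and Ndufaf7 in CAG150 were lost (adjusted p 0.05 to 0.079), as were Ndufb1 and Ndufa12 in HM1 with a pseudocount of 1 (0.058 and 0.059). The number called between the lines at day 6 was 3, and became 1 with arrays centred on their medians, 5 with a variance trend and 1 of 77 without chromosomes 8, 11 and Y, an alternative chosen after seeing the data. Between the lines at day 4 it was 5, and became 3 with no filter, 8 with a pseudocount of 64, 3 of 163 with all probe sets and 9 with a variance trend. Between the days in CAG150 it was 11, and became 20 after quantile normalization (16 higher and 4 lower) and 17 of 163 with all probe sets. With 1 array left out in turn, it ran between 1 and 4 for the lines at day 6, 2 and 5 for the lines at day 4, 9 and 15 for the days in CAG150, 6 and 10 for the days in HM1, and was 0 for the interaction. At day 6 it was 1 without CAG150 day 6 replicate 3 or HM1 day 6 replicate 1, and for the days in HM1 it was 6 without HM1 day 6 replicate 1. The replicate number as a block gave 3, 4, 12, 11 and 0 in the same order. It ended the call of Ndufb1 at day 4 (adjusted p = 0.06). Samples of the same number did not deviate together (6 of 18 pairs correlated above 0.1, from -0.17 to 0.12), so the numbers were not taken as pairs. Centring the arrays moved the median of all genes to -0.11 for the days in HM1 and -0.10 in CAG150, and turned the split over all genes from 2500 higher and 2273 lower into 1750 and 3085 in HM1, and from 2760 and 2693 into 1974 and 3474 in CAG150. Between the lines the split became 811 and 1617 at day 6, in place of 1243 and 1381, and 534 and 1165 at day 4, in place of 967 and 973. The cause of these changes was not tested. Weak probe sets such as those of Cox6a2, Cox8c, Cox7c and Ndufb1 limit what can be said of these genes.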
